A study of Mus musculus with 6 samples.

Results

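Heparan sulfate is a sugar chain carried by proteoglycans of the cell surface and matrix. The genes described here encode enzymes that build it: the polymerases Ext1 and Ext2, the N-deacetylase and N-sulfotransferase Ndst2, the uronic acid 2-O-sulfotransferase Hs2st1, the glucosamine 6-O-sulfotransferases Hs6st1 and Hs6st2, and the glucosamine 3-O-sulfotransferases Hs3st1, Hs3st3a1 and Hs3st3b1. The set holds 10 genes, of which 9 had a probe set analysed here and 1 was not analysed here. Their members were all probe sets with 1 gene symbol in the array annotation that matched a gene of the set, 21 of 45101 probe sets. The set was put together because Hs3st3a1 was low in Ret-deficient kidneys and because Hs2st1 is needed for branching of the ureteric bud, so the difference in Hs3st3a1 is given as a description with no test.

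RNA of whole embryonic kidneys was measured at embryonic day 12.5 on 1-colour Affymetrix mouse whole-genome arrays in 2 groups of C57BL/6 mice, 3 Ret-deficient and 3 wild-type samples, each a biological replicate with 1 array. Ret encodes the receptor tyrosine kinase through which GDNF acts on the ureteric bud, and the comparison asks which transcripts differ when it is lacking. The labels give no Ret allele and no number of embryos behind a sample, and their source field assigns the knockout to the pregnant female, while titles and genotype fields assign it to the kidneys, which was followed. Values are linear MAS5 signals, scaled by the authors to a common trimmed mean, so each is relative to the rest of the RNA on its array.

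Sulfation proceeds in order: the Ext enzymes extend the chain, N-sulfation opens it to epimerization and 2-O-sulfation, and 6-O- and 3-O-sulfation follow. The pattern of sulfate groups sets which growth factors a chain binds, GDNF and fibroblast growth factors among them. Mouse embryos without Hs2st1 form no kidneys, because the ureteric bud enters the mesenchyme but does not branch. The 3-O-sulfate is the rarest of these marks. In the mouse salivary gland, Hs3st3a1 and Hs3st3b1 are known as genes of the epithelial end buds that respond to FGF10.

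Hs3st3a1 and Hs3st3b1 are paralogs on mouse chromosome 11, encoded on opposite strands with 1 protein-coding gene, Cox10, between them. Because both were low in the same samples, their promoter windows of 300 bases (250 before and 50 after the start site, RefSeq, GRCm38.p6, written 5′ to 3′ on the strand of the gene) are shown. The Hs3st3a1 window is chr11:64435082-64435381 on the plus strand, and the Hs3st3b1 window is chr11:63922235-63922534 on the minus strand.
Hs3st3a1: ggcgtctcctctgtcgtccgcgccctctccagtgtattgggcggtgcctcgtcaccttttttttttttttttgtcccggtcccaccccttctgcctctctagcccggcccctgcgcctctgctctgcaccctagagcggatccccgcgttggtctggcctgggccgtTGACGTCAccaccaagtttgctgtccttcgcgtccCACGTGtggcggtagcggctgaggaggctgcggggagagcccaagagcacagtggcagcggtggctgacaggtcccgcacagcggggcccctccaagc
Hs3st3b1: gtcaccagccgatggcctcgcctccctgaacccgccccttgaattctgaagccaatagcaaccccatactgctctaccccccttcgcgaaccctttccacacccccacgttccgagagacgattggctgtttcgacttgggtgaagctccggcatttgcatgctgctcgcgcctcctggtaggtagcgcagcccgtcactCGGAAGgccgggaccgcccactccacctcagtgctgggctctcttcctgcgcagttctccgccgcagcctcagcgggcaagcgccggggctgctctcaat
Capitals mark matches, on either strand, to the ETS core CGGAAG, the cAMP response element TGACGTCA and the E-box CACGTG, which do not overlap one another here. The ETS core was searched because Etv4 and Etv5, which act downstream of Ret, bind such letters, and the other 2 motifs were chosen after the sequences were read. The Hs3st3a1 window held TGACGTCA, starting 83 bases before the start site, and CACGTG, starting 48 bases before it. The Hs3st3b1 window held CGGAAG, starting 50 bases before the start site. Among all 32851 promoter windows of this length, 1.79% held TGACGTCA, 7.15% held CACGTG and 16.9% held CGGAAG. The windows thus share none of these motifs, and a match is a description of letters only.

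Ret checked the labels. Its brighter probe set, 1436359_at, read 93.3, 479.8 and 334.1 in Ret-deficient replicates 1, 2 and 3 and 13315.2, 11041.9 and 10192.8 in wild-type replicates, a log2 difference of -5.43 (SE 0.53, adjusted p = 0.5096, limma). The arrays also differed in ways that touch the values below. In Ret-deficient replicate 1 markers of the ureteric epithelium were nearly lost: their summed signal was 10528, against 85633 and 67696 in the other 2 Ret-deficient samples and 92833 to 108589 in wild-type. There 7 of the 19 tested markers, of 25 listed, Cdh1 (71.7) and Calb1 (128.1) among them, did not exceed the brightest of 27 bacterial control probe sets, which served as the background and read 97.2 to 186.9 over the 6 arrays. In all 19 the mean of log2(signal + 16) was lower in Ret-deficient kidneys, though for Wnt9b the mean of the linear signal was not. Gata3 read 1408.8, 4008.8 and 1772.9 in Ret-deficient kidneys and 4221.1 to 5236.5 in wild-type kidneys. Wnt9b read 133.1, 5065.5 and 2897.6 in Ret-deficient kidneys and 2216.1 to 3048.5 in wild-type kidneys. Macrophage markers (9 tested of 10) stood highest in Ret-deficient replicate 3, with a median 1.45 log2 units above the wild-type mean and summed signals of 37561, 25814 and 71197 in Ret-deficient and 20443 to 31696 in wild-type kidneys. In wild-type replicate 1 the 3′ to 5′ ratio of the beta-actin controls was 10.7, against 3.88 to 5.21 on the other 5 arrays. The part of the macrophage markers and of this ratio in the differences below was not tested.

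Hs3st3a1 was low in every Ret-deficient sample. Its only probe set, 1435622_at, read 132.2, 259.9 and 131.9 in Ret-deficient replicates 1, 2 and 3 and 521.6, 534.3 and 705.9 in wild-type replicates. The highest Ret-deficient value lay below the lowest wild-type value. The means were 174.7 ± 73.8 in Ret-deficient and 587.3 ± 102.9 in wild-type kidneys (SD, n = 3 each). The log2 difference, Ret-deficient minus wild-type of log2(signal + 16), was -1.71 (SE 0.29), or 3.28-fold. Ret-deficient replicate 3, at 131.9, was not above its array's background of 133.4, and replicate 1, at 132.2, was just above its background of 128.2, so the size of the fold is approximate. Set at its background, replicate 3 gives at least 3.27-fold.

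Hs3st3b1, the paralog, was lower in the same 3 samples. Its brightest probe set, 1433977_at, read 984.7, 1600.0 and 1231.3 in Ret-deficient replicates 1, 2 and 3 and 2539.0, 6368.8 and 5087.4 in wild-type replicates. The groups did not overlap, all 6 values were far above background, and the lowest wild-type value was that of replicate 1, the array with the high 3′ to 5′ ratio. The means were 1272.0 ± 309.7 in Ret-deficient and 4665.1 ± 1949.5 in wild-type kidneys, a log2 difference of -1.79 (SE 0.37), or 3.46-fold. Without wild-type replicate 1 the log2 difference was -2.18 (SE 0.26).

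The other 3 probe sets of Hs3st3b1 were dim. One, 1421331_at, read 13.2, 21.3 and 74.8 in Ret-deficient kidneys, none above background, and 192.2, 154.2 and 102.8 in wild-type kidneys, all above it. Taken against the background, this is at least 1.14-fold lower. The other two, 1421332_at and 1442816_at, did not exceed background on any array and have no usable difference. Whether the probes for Hs3st3a1 and Hs3st3b1 also bind the transcript of the other gene was not tested.

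**Figure D1:**
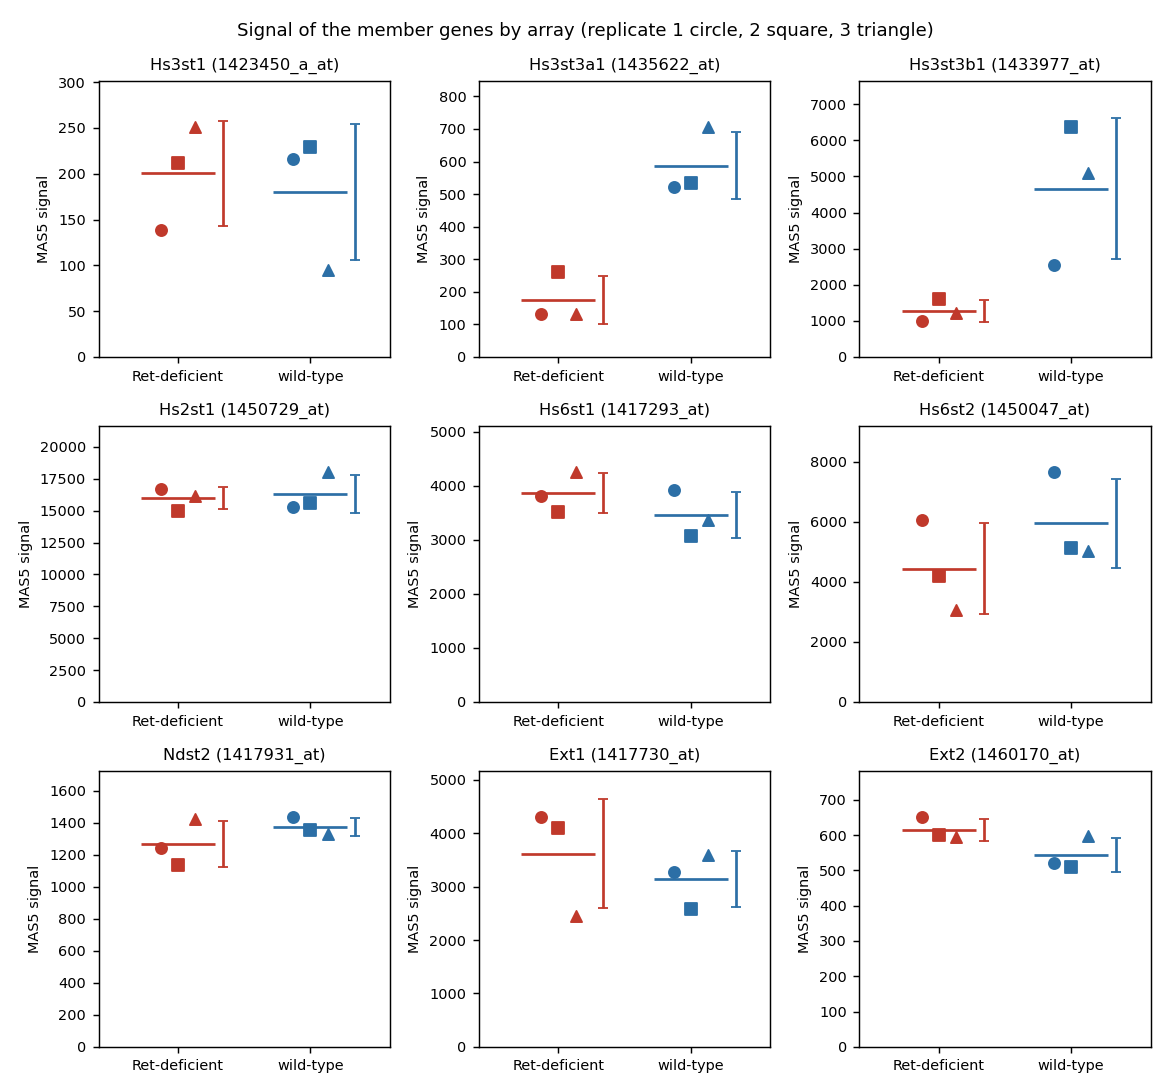
MAS5 signal (linear, vertical axes starting at 0) of the 9 measured genes, 1 probe set each, in Ret-deficient (red, left) and wild-type (blue, right) kidneys. Points are arrays, with the replicate number as the shape, horizontal lines are means and bars are 1 SD (n = 3). Hs3st3a1 (132.2, 259.9 and 131.9 against 521.6 to 705.9) and Hs3st3b1 (984.7 to 1600.0 against 2539.0 to 6368.8) show no overlap between groups.

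In each of the 3 Ret-deficient samples both 3-O-sulfotransferase genes stood below every wild-type array, while ureteric epithelium markers differed among these samples. Relative to the wild-type mean, Hs3st3a1 stood at -2.01, -1.12 and -2.01 log2 units in Ret-deficient replicates 1, 2 and 3. Hs3st3b1 stood at -2.13, -1.43 and -1.81. The median ureteric epithelium marker stood at -3.09, 0.03 and -0.69 in the same samples. In replicate 2 the median marker was near the wild-type mean, but the summed marker signal, Cdh1 (3027.9), Calb1 (13352.8) and Gata3 were below every wild-type array. The part of the ureteric epithelium in the differences of Hs3st3a1 and Hs3st3b1 was not tested. Without Ret-deficient replicate 1 the log2 difference was -1.57 (SE 0.32) for Hs3st3a1 and -1.62 (SE 0.42) for Hs3st3b1. With any 1 of the 6 arrays left out it lay between -2.01 and -1.56 for Hs3st3a1 and between -2.18 and -1.51 for Hs3st3b1. In RNA of a whole organ, fewer cells of a type and less RNA per cell cannot be told apart.

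**Figure D2:**
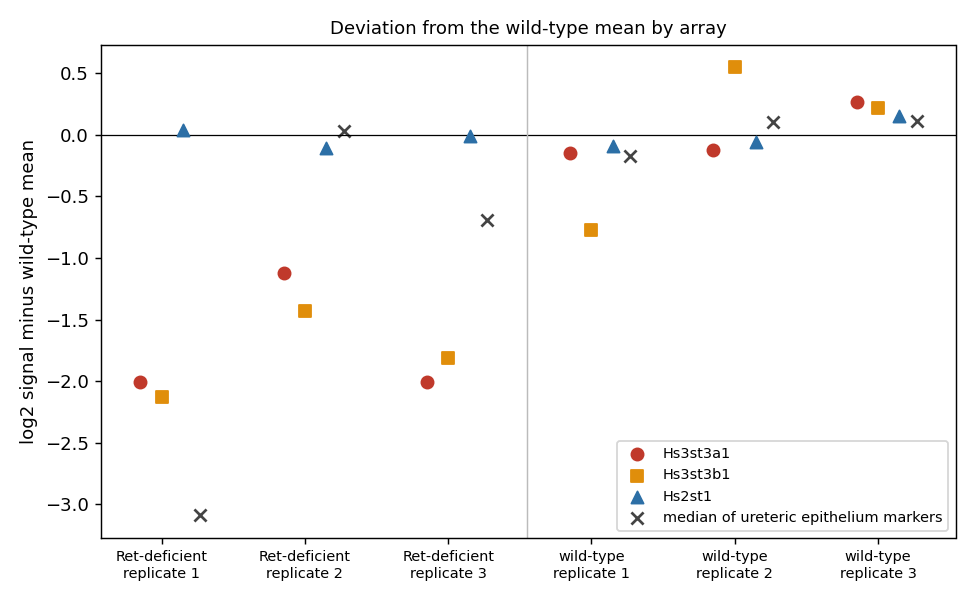
Log2(signal + 16) minus the wild-type mean (vertical axis, log2 units) on each array, with Ret-deficient replicates left of wild-type replicates, for Hs3st3a1, Hs3st3b1, Hs2st1 and the median of 19 ureteric epithelium markers. In Ret-deficient replicate 2 Hs3st3a1 (-1.12) and Hs3st3b1 (-1.43) stood below all wild-type arrays with a marker median of 0.03. The summed marker signal of that array (85633) was also below wild-type (92833 to 108589). In replicates 1 and 3 Hs3st3a1 stood at -2.01 and -2.01 and Hs3st3b1 at -2.13 and -1.81. The marker medians there were -3.09 and -0.69. Hs2st1 stayed between -0.11 and 0.15 on all 6 arrays.

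Hs3st1, which makes the 3-O-sulfated site that binds antithrombin, was near background. Its probe set 1423450_a_at read 138.6, 211.8 and 250.9 in Ret-deficient kidneys and 216.3, 229.3 and 95 in wild-type kidneys. The groups overlapped, and the probe set lay below the brightness cutoff for testing.

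Hs2st1, the 2-O-sulfotransferase, had closely similar signals in both groups. Its brightest probe set, 1450729_at, read 16723.8, 15015.5 and 16183.1 in Ret-deficient kidneys and 15253.3, 15610.1 and 18041.2 in wild-type kidneys. The log2 difference was -0.03 with a 95% interval of -0.40 to 0.35. The 3 dimmer probe sets had log2 differences of 0.20 (1450730_at), -0.17 (1422739_at) and -0.28 (1440905_at). Their signs differed, and the groups overlapped in all 4 probe sets. With 1 array left out the brightest gave -0.07 to 0.05, 1450730_at 0.08 to 0.30 and 1422739_at -0.48 to 0.03.

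By their brightest probe sets the 6-O-sulfotransferase genes differed from each other in direction, with overlapping groups in both. Hs6st1 read 3822.2, 3512.1 and 4258.3 in Ret-deficient kidneys and 3922.9, 3079.2 and 3366.3 in wild-type kidneys, a log2 difference of 0.16 (95% interval -0.25 to 0.57) that was 0.08 to 0.26 with 1 array left out. Hs6st2, by its brightest probe set 1450047_at, read 6052.1, 4203.6 and 3053.5 in Ret-deficient kidneys and 7654.0, 5133.1 and 5038.8 in wild-type kidneys. Ret-deficient replicate 1, the sample low in ureteric epithelium markers, was the highest of its group and lay within the wild-type range. The log2 difference was -0.45 (SE 0.30). It was -0.21 when Ret-deficient replicate 3 was left out, -0.25 without wild-type replicate 1 and -0.70 without Ret-deficient replicate 1. The other 3 Hs6st2 probe sets were too dim to test, and all had a lower mean signal in Ret-deficient kidneys. Of these, 1420938_at read 251.6, 181.7 and 151.9 in Ret-deficient kidneys and 341.2, 230.1 and 272.9 in wild-type kidneys, with overlap. The probe set 1420939_at, above background on 1 of 3 Ret-deficient arrays, read 132.9, 84.6 and 87.5 in Ret-deficient kidneys and 356.3, 173.0 and 101.3 in wild-type kidneys, also with overlap. The last, 1446257_at, read 71.7, 112.0 and 107.2 in Ret-deficient kidneys, none above background, and 336.9, 173.8 and 129.3 in wild-type kidneys. Its groups did not overlap, and it was at least 1.5-fold lower in Ret-deficient kidneys. The difference between Hs6st1 and Hs6st2 was not tested.

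The enzymes that act earlier on the chain overlapped between the groups. Ndst2, a deacetylase and N-sulfotransferase known from heparin synthesis in mast cells, read 1243.2, 1139.6 and 1424.3 in Ret-deficient kidneys and 1437.4, 1358.2 and 1331.0 in wild-type kidneys. Its log2 difference was -0.12 (95% interval -0.50 to 0.26), and -0.21 to -0.05 with 1 array left out. Ext1 and Ext2 form the polymerase together. Ext1 read 4308.5, 4103.0 and 2455.0 in Ret-deficient kidneys and 3273.0, 2576.0 and 3588.3 in wild-type kidneys, a log2 difference of 0.17 (95% interval -0.46 to 0.81). Only Ret-deficient replicate 3 was below the wild-type range, and without it the difference was 0.43. It was 0.03 without Ret-deficient replicate 1, 0.06 without Ret-deficient replicate 2 and 0.04 without wild-type replicate 2. Ext2, by probe set 1460170_at, read 651.5, 601.2 and 594.1 in Ret-deficient kidneys and 519.8, 510.9 and 597.6 in wild-type kidneys, a log2 difference of 0.18 (95% interval -0.19 to 0.55). The remaining probe sets, 1458054_at of Ext1 and 1447319_at and 1447743_x_at of Ext2, read at most 165.2 and were at or near background.

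**Figure D3:**
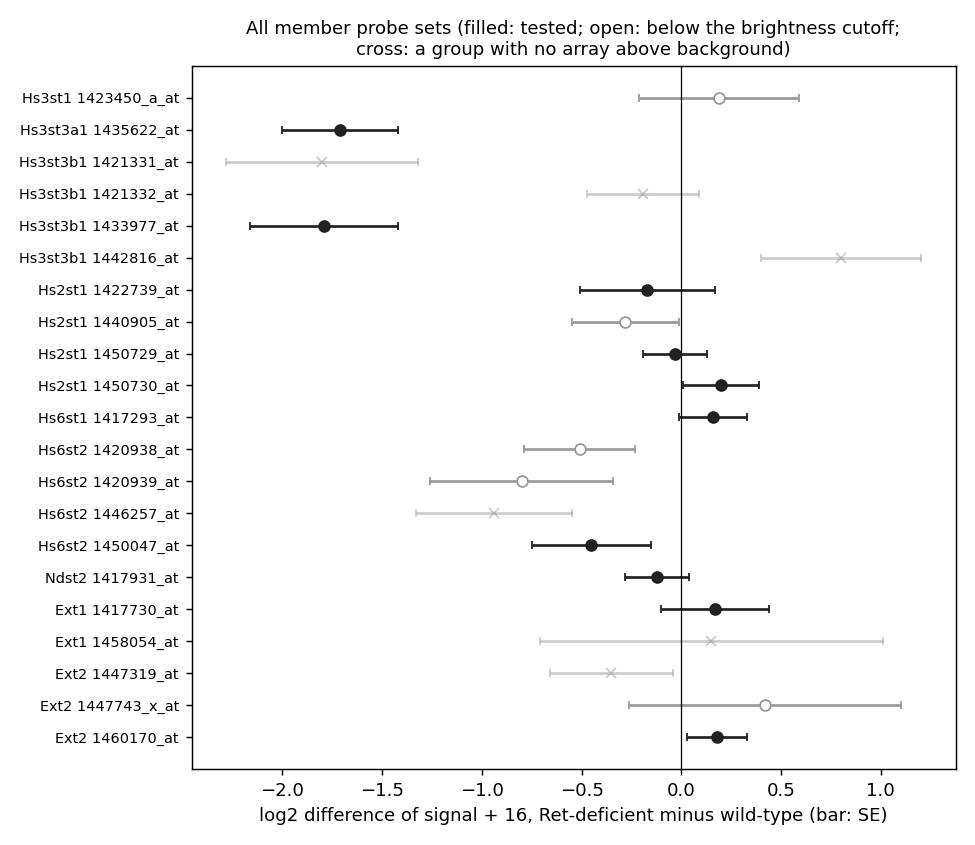
Log2 difference of signal + 16, Ret-deficient minus wild-type (horizontal axis), with its SE as the bar, for all 21 probe sets of the 9 genes. Filled points were tested, open points lay below the brightness cutoff, and the position of a cross is no usable value because no array of a group was above background. Among the 10 tested probe sets Hs3st3a1 (-1.71) and Hs3st3b1 (-1.79) are lowest, and the others lie between -0.45 and 0.20.

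A probe set was tested when its mean log2(signal + 16) over the 6 arrays reached the median of all probe sets, 8.19. Of the 21 probe sets 10 passed, covering 8 of the 9 genes, and 11 did not. Hs3st3a1 passed through its wild-type values, since its Ret-deficient values lay near the background. In the 10 tested probe sets 4 log2 differences were positive and 6 negative. The groups did not overlap in 2, both lower in Ret-deficient kidneys, where 10.7% of all 22519 tested probe sets did not overlap in either direction with 5.54% in the lower and 5.17% in the higher direction. The same 2 had a log2 difference at or below -1, which 1.15% of all tested probe sets had. By limma, 0 of the tested probe sets other than that of Hs3st3a1 passed an adjusted p of 0.05, beside 0.0% of all tested probe sets. The set was chosen on this contrast, so nothing is read from these counts. The median over the 8 genes was -0.07, beside 0.00 over all 11581 tested genes, and the 6 genes other than Hs3st3a1 and Hs3st3b1 lay between -0.45 and 0.18.

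The genes that lie next to Hs3st3a1 and Hs3st3b1 were looked up after their values were seen. Cox10, a haem synthesis enzyme and the only protein-coding gene between them, read 2867.7, 2048.2 and 2420.9 in Ret-deficient kidneys and 2676.6, 2435.5 and 2378.8 in wild-type kidneys by its brightest probe set. Its log2 difference was -0.04 (SE 0.18), and the groups overlapped. The 2 dimmer probe sets of Cox10 gave 0.32 and 0.21, with overlapping groups. The non-coding gene 2810001G20Rik, also between them, read 3355.5, 3458.9 and 3586.7 in Ret-deficient kidneys and 1131.2, 2942.8 and 3347.4 in wild-type kidneys. Its log2 difference of 0.63 became 0.14 without wild-type replicate 1. Elac2, the next protein-coding gene beyond Hs3st3a1, had log2 differences of -0.31 in its brightest probe set, where the groups did not overlap (-0.17 without Ret-deficient replicate 3), and of 0.05 and 0.15 in the others, where they did. Further out, Pmp22 on the side of Hs3st3b1 had -0.05 (SE 0.37) and Arhgap44 beyond Elac2 had -0.30 (SE 0.37), both with overlapping groups. The non-coding gene 9630013K17Rik, also between the paralogs, was above background on 1 wild-type array only and has no usable difference. Differences as large as those of the paralogs were thus not seen in the other neighbours named here.

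Correlations over the 6 arrays were taken with 11196 other tested genes, after genes with Rik or Gm-number names were left out. The genes whose log2 signal correlated best with that of Hs3st3a1 were Ston2 (Pearson r = 0.980), Emc1 (0.971), Rprm (0.971), Lmln (0.970) and the Wnt receptor gene Fzd6 (0.969). The 6 points share the split into 2 groups, so a gene that is lower in every Ret-deficient array scores high whatever the size of its difference. Ston2 had a log2 difference of -0.73, Fzd6 -0.61 and Rprm -0.56, while those of Lmln and Emc1 were -0.11 and -0.06. Hs3st3b1 took rank 52 with r = 0.914. For Hs2st1 the best were Mfsd4b4 (r = 0.984), Klhl26 (0.959), Pecr (0.956), the Notch ligand gene Jag2 (0.949) and the kinase gene Jak1 (0.947), and in all 5 the groups overlapped.

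The other genes of the pathway were taken in 5 lists chosen by function. By limma, 0 of their 57 tested genes passed, with adjusted p values from 0.9185 to 0.9993, and 2 had an unadjusted p under 0.05, where 5.37% of all tested probe sets did. Of the 57 genes 39 were higher and 18 lower in Ret-deficient kidneys, with a median log2 difference of 0.13, beside 5846 higher and 5735 lower among all 11581 tested genes with a median of 0.00. The groups did not overlap in 7 of the 57, beside 11.8% of all tested genes. No gene of these lists had a log2 difference at or below -1 in this fit, the lowest being -0.57. When arrays were weighted by quality, Hs3st6 had -1.08. Leaving out 1 array at a time gave medians of 0.07 to 0.15 over the 57 genes, lowest without wild-type replicate 1.

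Further enzymes that build or modify the heparan sulfate chain were mostly at low signal. Of the 11 listed genes 10 had a probe set and 4 were tested, with 3 higher and 1 lower and a median of 0.05. The lower one was Hs3st6, another 3-O-sulfotransferase, which read 1224.1, 2041.3 and 2960.6 in Ret-deficient kidneys and 1561.9, 4398.2 and 3369.6 in wild-type kidneys. The groups overlapped through wild-type replicate 1, and the log2 difference was -0.54 (SE 0.46, adjusted p = 0.9508, limma). With 1 array left out it ranged from -0.98 (without wild-type replicate 1) to -0.21 (without Ret-deficient replicate 1), and it was -0.23 without wild-type replicate 2.

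In the list of linker and precursor supply, which makes the sugar stub on the core protein and the activated sulfate and sugars, 12 of 14 tested genes were higher and 2 lower (median 0.14). Without wild-type replicate 1, 9 were higher and 5 lower (median 0.09). B3gat3, which adds the last sugar of the linker, read 2691.8, 2460.2 and 1932.1 in Ret-deficient kidneys and 1369.3, 1840.7 and 1831.6 in wild-type kidneys, a log2 difference of 0.49 (adjusted p = 0.9231, limma). Papss1, which makes the sulfate donor used by every sulfotransferase, read 4344.4, 3626.5 and 3784.5 in Ret-deficient kidneys and 3413.0, 2383.7 and 3084.3 in wild-type kidneys, a log2 difference of 0.41 (adjusted p = 0.9284, limma), and 0.27 without wild-type replicate 2. In these genes the groups did not overlap. B4galt7, a galactosyltransferase of the linker, overlapped at its brightest probe set, where the log2 difference of 0.37 became 0.05 without wild-type replicate 1. Another of its probe sets gave 0.31 with no overlap. B3galt6, another galactosyltransferase of the linker, was picked once its value was known. Its log2 difference was 1.08 (SE 1.04), with overlapping groups. That value lay between 0.41 (without wild-type replicate 1) and 2.18 with 1 array left out.

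In the list of heparan sulfate remodelling and breakdown 8 of 11 tested genes were higher and 3 lower (median 0.20, 0.06 without wild-type replicate 1), all with overlapping groups. Hpse2, a relative of heparanase, read 629.8, 765.1 and 1472.6 in Ret-deficient kidneys and 593.7, 665.5 and 562.0 in wild-type kidneys. Its log2 difference of 0.55 (adjusted p = 0.9374, limma) was 0.19 without Ret-deficient replicate 3. Sulf1 and Sulf2, which remove 6-O-sulfate outside the cell, are given by choice after their values were seen. Sulf1 read 22346.0, 9647.1 and 25739.2 in Ret-deficient kidneys and 15257.7, 8926.4 and 14406.9 in wild-type kidneys, with Ret-deficient replicate 2 within the wild-type range. The log2 difference of Sulf1 was 0.50 (95% interval -0.48 to 1.48) by this probe set, 0.23 without Ret-deficient replicate 3 and 0.94 without replicate 2 of that group. By another probe set of Sulf1 it was 0.74 (95% interval -0.03 to 1.52), also with overlapping groups. That of Sulf2 was -0.04 (95% interval -0.39 to 0.30) by its brightest probe set and 0.34 and 0.09 by the others.

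Among 14 tested genes of proteoglycan core proteins 8 were higher and 6 lower (median 0.05, and -0.04 without wild-type replicate 2 or -0.02 without wild-type replicate 3). The syndecan gene Sdc2 read 7732.8, 8349.6 and 8140.9 in Ret-deficient kidneys and 6544.3, 4306.0 and 7385.5 in wild-type kidneys, a log2 difference of 0.44 (adjusted p = 0.9374, limma) that was 0.21 without wild-type replicate 2. Its 2 dimmer tested probe sets gave 0.58 (0.35 to 0.90 with 1 array left out) and 0.62 with overlapping groups. The glypican gene Gpc3 read 53565.4, 39982.0 and 42044.5 in Ret-deficient kidneys and 27317.3, 38092.8 and 38824.3 in wild-type kidneys, a log2 difference of 0.39 that was 0.22 without wild-type replicate 1. Agrn, which encodes the basement membrane proteoglycan agrin, had 0.25 (SE 0.17) with overlapping groups, and 0.16 without wild-type replicate 3.

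Chondroitin and dermatan sulfate enzymes, which act on the sister chains built on the same linker, were higher in 8 of 14 and lower in 6 (median 0.13, 0.00 without Ret-deficient replicate 3 and 0.02 without wild-type replicate 2). Chst7, a chondroitin sulfotransferase, read 227.2, 353.7 and 233.2 in Ret-deficient kidneys and 419.2, 420.4 and 367.1 in wild-type kidneys, a log2 difference of -0.57 (SE 0.21, adjusted p = 0.9185, limma). Chst12, another chondroitin sulfotransferase, had -0.32 (SE 0.20), also without overlap, and -0.15 without Ret-deficient replicate 3. Chpf2, a chondroitin polymerizing factor, read 558.1, 575.5 and 714.0 in Ret-deficient kidneys and 213.8, 436.9 and 441.6 in wild-type kidneys. Its log2 difference of 0.79 (SE 0.30, adjusted p = 0.9215, limma) was 0.46 without wild-type replicate 1. Dsel, which resembles the dermatan sulfate epimerase gene, had 0.46 (SE 0.20) with overlapping groups.

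**Figure D4:**
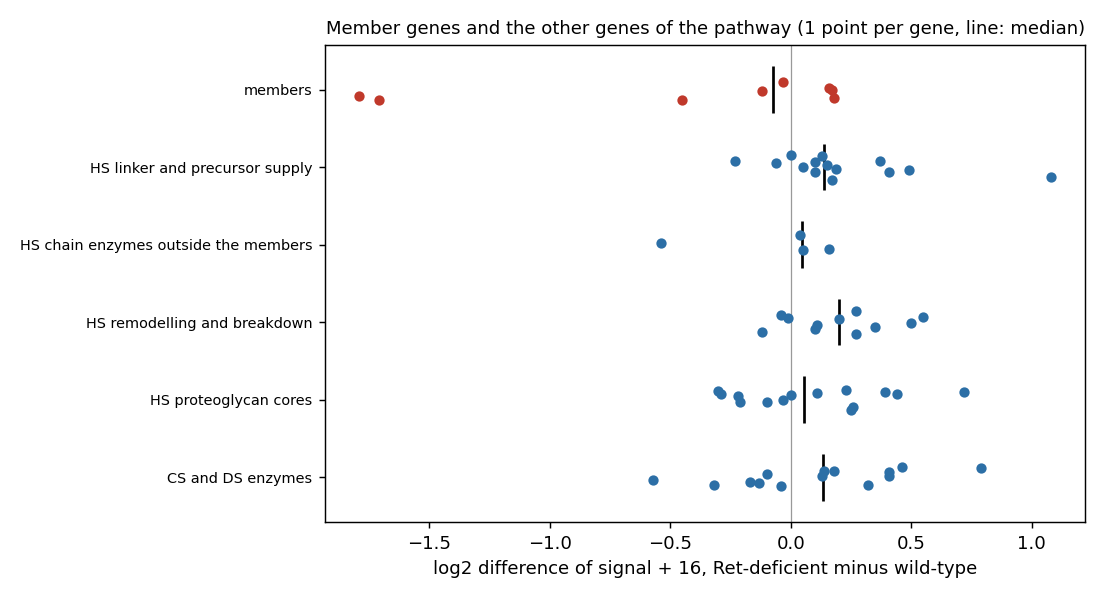
Log2 difference of signal + 16, Ret-deficient minus wild-type (horizontal axis), of the 8 tested genes of the set (red) and the 57 tested genes of the 5 pathway lists (blue). Each point is 1 gene, spread vertically for legibility, and each line is the median of its row (HS, heparan sulfate; CS and DS, chondroitin and dermatan sulfate). Hs3st3b1 (-1.79) and Hs3st3a1 (-1.71) lie below all genes of the lists, of which the lowest is at -0.57.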

How the data were processed

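The deposited table holds linear intensity values, 1 column for each of 6 arrays, made by the authors with MAS5, per the submitters' processing notes. Its version, scaling target and detection calls were not given in the sources used here. The mean after trimming 2% at each end was 2500.0 on every array, which shows the authors' scaling. A commercial kit amplified the RNA, per the series' design text.

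The 64 control probe sets were left out. Differences are Ret-deficient minus wild-type in log2(value + 16), which understates those of dim probe sets. Of 45037 probe sets, the 22519 whose mean log2 value reached the median were tested with limma 3.58.1 in R 4.3.3 (lmFit and eBayes, no covariates), with Benjamini-Hochberg adjustment across the 22519 and a threshold of 0.05. SE and 95% intervals are from this fit, or for dimmer probe sets from the fit of all probe sets. Tables and figures were made in Python with pandas and matplotlib. Symbols came from the platform annotation (34958 probe sets with 1 symbol, 932 with several, 9211 with none), updated by gene ID through RefSeq (GRCm38.p6) for 99.42% of the first. A gene was represented by its brightest tested probe set. The background is the brightest of 27 bacterial control probe sets of an array, and an "at least" fold sets values not above it to it.

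The members and lists were chosen with earlier results of these data known. Named were the members analysed here, Ret, 4 ureteric markers and the 5 genes that correlate best with Hs3st3a1 and with Hs2st1. Genes with Rik or Gm-number names were left out of these correlations. Where no gene of a pathway list passed the threshold, at most 3 genes without overlap and at most 1 other were named, by smallest p. When this comparison was simulated on 22519 probe sets, the limma test found 22.4% of 67 with a 1 log2 unit change, 65.7% of 67 with 2 units and 93.9% of 66 with 4 units, plus 6 false calls. The simulated noise was normal and independent between probe sets, with 200 changes planted, so these rates need not hold for the deposited values. There 0 of 22519 probe sets passed, and Ret, at -5.43, had an adjusted p of 0.5096 (limma). Precision is limited by the number of arrays. Alternatives were other pseudocounts, brightness filters, normalizations and variance models, array weights, the replicate number as a block, averaging the probe sets of a gene, and leaving out each array.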

Additional observations from a re-analysis of the deposited data

How the results depend on the processing

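Under all alternatives run, 0 tested probe sets of the set other than that of Hs3st3a1 passed the threshold by limma. Of the 57 pathway genes 0 passed it. Over all tested probe sets the count was 0 and became 1, Ret, with an intensity trend in the variance, 1 with median centring, and 0 to 1 with an array left out (1 without Ret-deficient replicate 1). Hs3st3a1 had a log2 difference of -1.81 to -1.48 over the pseudocounts and scalings, and it was left out when the top 30% by mean signal were kept. The count of probe sets of the set whose groups do not overlap was 2 of 10, beside 10.7% of all tested probe sets. It was 3 of 10 with median centring, 4 of 21 without the brightness filter and 1 of 6 in the top 30%. The share over all probe sets is not given for these alternatives, so nothing is read from their counts. With an array left out the count was 2 to 5, where 16.2% to 28.6% of all tested probe sets did not overlap. It was 5 without Ret-deficient replicate 3, where 28.6% of all tested probe sets did not overlap, and 4 without wild-type replicate 3 (19.9%), since fewer arrays overlap less often. Hs3st3a1 and Hs3st3b1 were among them with each array left out. This was fixed in advance, because removing an array cannot make separate groups overlap. Median centring moved the median of all tested probe sets from -0.01 to 0.10 and that of the 8 genes from -0.07 to 0.04. Under it Hs2st1 stood at 0.09 and Ext2 at 0.29, the 2 of 323 recomputed single values that moved by more than 1 SD between replicates. The replicate numbers did not pair the samples (correlations of deviations 0.03, -0.04 and -0.12 for numbers 1, 2 and 3), and the fit with the replicate number as a block gave 0 calls and a log2 difference of -1.71 for Hs3st3a1.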
